A study of Mus musculus with 9 samples.

Results

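The endoplasmic reticulum (ER) genes described here are 49 listed genes for bringing proteins into the ER, folding and glycosylating them there, and moving them between the ER and the Golgi in COPII and COPI vesicles. Members were chosen by their known function, but with earlier results of these data known, so counts of calls describe this list. Each member was read from the brightest probe set that names that gene alone. Of the 49 genes 46 had such a probe set, and all 46 lay above the filter on low signals and were tested among 8879 genes. Srp72, Sec61g and Tmed2 were not analysed here: Sec61g and Tmed2 were listed only on probe sets that name other genes as well, and Srp72 on none that was used. The genes fall into 8 subgroups along the path of a secreted protein: signal recognition and translocation, signal peptidase, N-glycosylation, chaperones and disulfide isomerases, the unfolded protein response with ER-associated degradation, COPII and its SNARE, the COPI coat, and cargo and retrieval receptors.

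Affymetrix MOE430A arrays had measured liver RNA of 3 mouse models: liver-Cpr-null, Cpr-low and the control, Cpr-lox. Cpr is NADPH-cytochrome P450 reductase, the electron donor of the microsomal P450 enzymes. Each model gave 3 RNA pools, made from the livers of its 8 or 9 males aged 2 months, with mixed C57BL/6 and 129/Sv ancestry throughout. The alleles behind liver-Cpr-null and Cpr-low, and the cell type and promoter of any Cre, are not given in the sources used here, and the reductase's own gene is not analysed here, which leaves the model labels unchecked by it. The pools were called independent, but whether they share mice is not given, so p-values measure the spread between pools.

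Secreted and membrane proteins enter the ER through the Sec61 channel, guided by the signal recognition particle. Signal peptidase then cuts off the signal sequence, the oligosaccharyltransferase adds N-linked sugars, and chaperones and protein disulfide isomerases fold the chain. When unfolded proteins gather, the sensors Ire1, Perk and Atf6 start the unfolded protein response, in which the factors Xbp1 and Atf6 raise transcription of chaperones, translocation genes and degradation genes. COPII vesicles carry folded cargo to the Golgi, and COPI vesicles bring escaped ER proteins back. Hepatocytes, which release most plasma proteins and very low density lipoprotein, use this path heavily, and P450 enzymes and Cpr are themselves inserted into the ER membrane.

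Values are array signals scaled to a common 2% trimmed mean, always listed in the order of pools 1, 2 and 3, and log2 fold changes are differences of mean log2(signal + 16), given with the standard error of the fit. A gene was called where limma's adjusted p over all 8879 genes was under 0.05. The deposited arrays had medians of 171 to 179 signal units, with precision limited by the number of arrays. Of 10 hepatocyte markers 8 had a usable probe set and all 8 were tested, with summed signals of 157588 to 158656 in liver-Cpr-null, 168206 to 178979 in Cpr-low and 168256 to 170141 in Cpr-lox pools. The 3 Cpr-lox arrays and Cpr-low pool 1 carried one recorded hybridization date, and the other 5 arrays the next, with 102 minutes between the 2 sets across midnight. Scan dates set the Cpr-lox arrays apart from all the others, and an effect of the scan cannot be told apart from that of the control model. Cpr-low pool 1 stood apart from the other arrays of its model, with the lowest trimmed mean of deposited signals (349 against up to 384) and the lowest position on the first principal component.

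In liver-Cpr-null livers 10 members of the ER set were higher than in Cpr-lox and 1 was lower, against 3.66% and 3.44% of all genes tested (unadjusted p under 0.05, 21 and 3, against 8.21% and 10% of all genes). The higher ones were P4hb, Srp9, Sec61a1, Sec61b, Ssr3, Spcs2, Sec11c, Ddost, Sar1b and Sec22b, and the lower one was Copa. The median log2 fold change was 0.19 over the 46 members and -0.04 over all genes. None of these 11 calls held with the recorded hybridization date as a block, where 0 members were higher than in Cpr-lox and the median was 0.07 for members and all genes alike, and this limit applies to every liver-Cpr-null call over Cpr-lox described for the single genes. In Cpr-low livers, compared with the same Cpr-lox pools, 0 members were higher and 6 were lower in limma's test, against 2.31% and 3.48% of all genes; at an unadjusted p under 0.05 the counts were 4 and 10, against 8.51% and 9.39%. Those 6 were Hspa5, Dnajc3, Xbp1, Sec23a, Copa and Copb1, and the medians were -0.06 for members and 0.04 for all genes. Set directly against Cpr-low, liver-Cpr-null had 12 members higher and 0 lower (unadjusted, 24 and 1, against 10.5% and 15.6%), against 4.66% and 3.76% of all genes. Those 12 were Hspa5, P4hb, Dnajc3, Srp9, Sec61a1, Ssr3, Ssr4, Spcs1, Spcs2, Sec11c, Sar1b and Sec22b, with medians of 0.22 for members and -0.08 for all genes. With the date as a block, only Hspa5, Sec61a1, Spcs1 and Sec22b kept this call. The calls over Cpr-low described below for the other members carry that limit. The shares of all genes in this paragraph, with and without adjustment, are also the background of the matching counts of each subgroup and list.

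Since both models were compared with the same 3 Cpr-lox pools, and liver-Cpr-null with the same Cpr-low pools, the 3 comparisons are not independent. In all, 18 members were called in at least 1 of them and 28 in none. Averaged over the 46 members, log2 signal relative to the Cpr-lox mean was 0.28, 0.11 and 0.12 in liver-Cpr-null pools, -0.16, -0.0053 and -0.0020 in Cpr-low pools and -0.082, -0.0092 and 0.091 in Cpr-lox pools. All 3 liver-Cpr-null pools thus lay above the other 6 arrays, with pool 1 highest, and Cpr-low pool 1 was lowest. Single pools carried part of the counts. Without liver-Cpr-null pool 1 there were 6 members higher than in Cpr-lox and 4 higher than in Cpr-low. Without Cpr-low pool 1 there were 3 lower in Cpr-low than in Cpr-lox, and 4 higher in liver-Cpr-null than in Cpr-low, a count that came to 7 without Cpr-low pool 2. The 6 lower in Cpr-low came to 2 when pool 2 of Cpr-lox was left out and 3 when its pool 3 was. Copa, the 1 member lower in liver-Cpr-null than in Cpr-lox, is taken up with the COPI coat. RNA came from whole liver, in which fewer cells of a type and less RNA per cell cannot be told apart.

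Some choices of scaling moved the balance of calls over all genes. In liver-Cpr-null against Cpr-lox 325 genes were higher and 305 lower, against 335 and 204 on signals as deposited and 304 and 145 with arrays scaled to a common median. In Cpr-low against Cpr-lox the counts were 205 and 309, then 137 and 295, then 102 and 249, and in liver-Cpr-null against Cpr-low 414 and 334, then 521 and 179, then 524 and 131, in the same order. The member medians kept their signs under these scalings, at 0.22 and 0.23 in liver-Cpr-null against Cpr-lox, -0.096 and -0.11 in Cpr-low against Cpr-lox and 0.28 and 0.31 in liver-Cpr-null against Cpr-low. Quantile normalization left the balance near that of the main scaling, at 336 and 296, 222 and 301, and 421 and 303, with comparisons in the same order. Its member medians were 0.16, -0.037 and 0.18, of the same signs but smaller in size than with the main scaling.

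**Figure D1:**
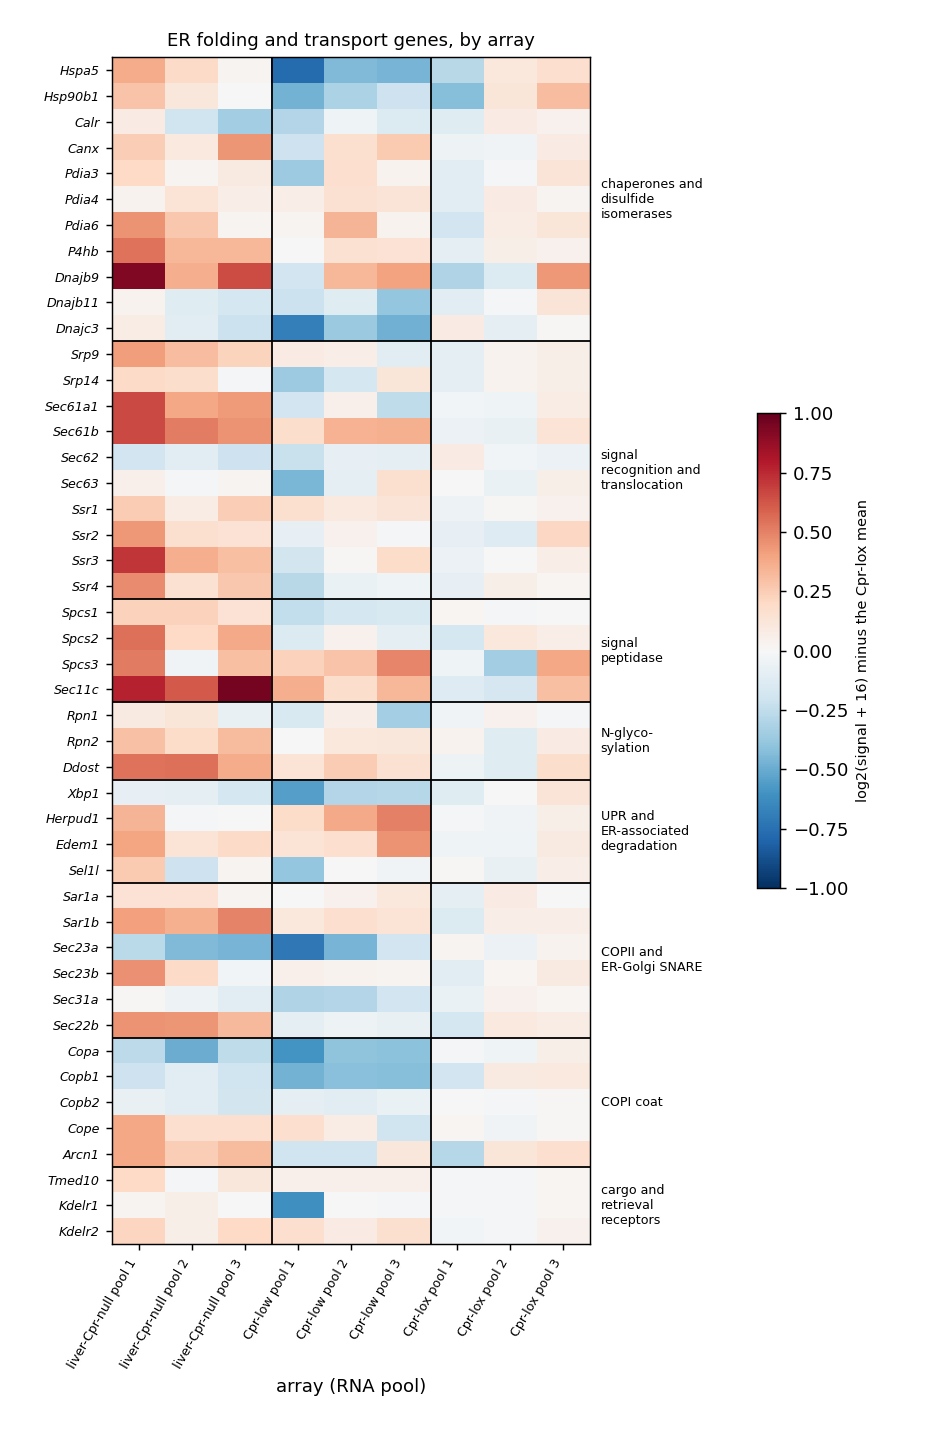
Each row is 1 of the 46 tested genes and each column 1 array. Colour gives log2(signal + 16) minus that gene's mean in Cpr-lox, red for above and blue for below. Liver-Cpr-null columns are red for most translocation, signal peptidase and N-glycosylation genes, and Cpr-low columns are blue for Hspa5, Dnajc3, Xbp1, Sec23a, Copa and Copb1, with pool 1 the lowest of its model for each of these 6.

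**Figure D2:**
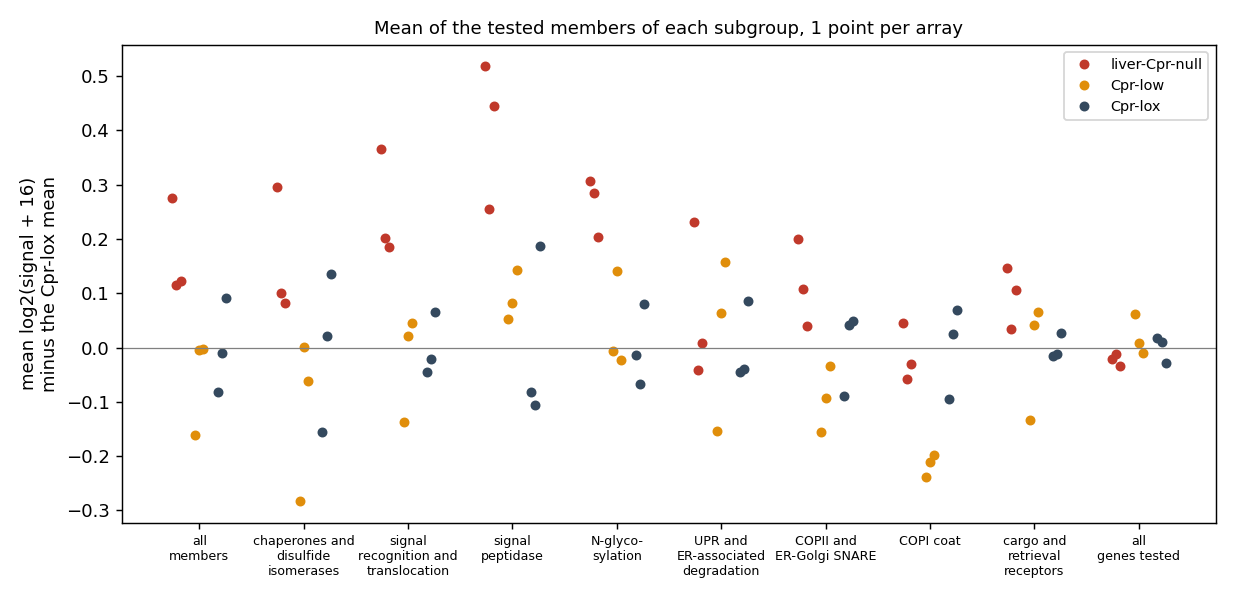
Points are single arrays, 3 per model, and the vertical axis is the mean of log2(signal + 16) over the tested members of a subgroup minus the Cpr-lox mean. Signal peptidase reached 0.52, 0.25 and 0.45 in liver-Cpr-null pools, above every Cpr-low and Cpr-lox point. The COPI coat was at -0.24, -0.21 and -0.20 in Cpr-low pools, below every other point of that subgroup.

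Genes that bring nascent chains into the ER were among those higher in liver-Cpr-null. Of the 10 tested, 4 were higher than in Cpr-lox and 0 lower (unadjusted, 7 and 1), 4 were higher than in Cpr-low and 0 lower (unadjusted, 7 and 0), and none was called between Cpr-low and Cpr-lox in limma's test (unadjusted, 1 higher and 0 lower). Sec61a1, the channel-forming subunit of the translocon, had scaled signals of 3209.6, 2652 and 2715 in liver-Cpr-null pools, 1768, 2099 and 1694 in Cpr-low pools and 1978, 1958 and 2132 in Cpr-lox pools. Its liver-Cpr-null pools lay above all the others, with no overlap between liver-Cpr-null and either model. The log2 fold change was 0.49 ± 0.10, adjusted p = 0.00852 against Cpr-lox, and 0.62 ± 0.10, adjusted p = 0.00209 against Cpr-low, and both calls held without any 1 pool. Sec61b, the small beta subunit, had 1733, 1562 and 1498 in liver-Cpr-null pools, 1235, 1392 and 1405 in Cpr-low pools and 1050.1, 1035 and 1202 in Cpr-lox pools. The 3 models were ordered without overlap, liver-Cpr-null highest and Cpr-lox lowest. Against Cpr-lox, liver-Cpr-null was higher by 0.54 ± 0.09, adjusted p = 0.00267, a call kept without any 1 pool. Its other differences did not pass: 0.29 ± 0.09, adjusted p = 0.085 for Cpr-low against Cpr-lox and 0.25 ± 0.09, adjusted p = 0.112 for liver-Cpr-null against Cpr-low.

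Several further probe sets on the array name Sec61a1. After the one used, the next brightest gave 0.49 in liver-Cpr-null against Cpr-lox and 0.34 against Cpr-low, and the third gave 0.29 and 0.32. On the dimmest kept one the values were -0.065 and -0.19. Positive values thus came from the 3 brightest probe sets, and the others were near or below 0. Sec61b was read from its single usable probe set.

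Srp9, which with Srp14 forms the part of the signal recognition particle that slows elongation, had 968, 898 and 843 in liver-Cpr-null pools, 764, 757 and 668 in Cpr-low pools and 676, 738 and 749 in Cpr-lox pools. Liver-Cpr-null was above both other models without overlap, while Cpr-low and Cpr-lox overlapped. The rises were 0.32 ± 0.084, adjusted p = 0.0393 against Cpr-lox and 0.30 ± 0.084, adjusted p = 0.0446 against Cpr-low. Both were close to the threshold: the first was lost without any of 6 pools (all 3 Cpr-lox pools, Cpr-low pool 2, liver-Cpr-null pools 1 and 2; adjusted p up to 0.181) and the second without any of 7 (all 6 pools compared and Cpr-lox pool 2; up to 0.181). Its partner Srp14 was not called, at 0.11, adjusted p = 0.684 against Cpr-lox and 0.25, adjusted p = 0.183 against Cpr-low.

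The translocon-associated protein complex, made of Ssr1 to Ssr4, sits beside the channel and aids the entry of some precursors. Ssr3 had 2864, 2232 and 2141 in liver-Cpr-null pools, 1522, 1751 and 1974 in Cpr-low pools and 1666, 1728 and 1816 in Cpr-lox pools. Pool 1 was the highest of the liver-Cpr-null values, and all 3 lay above every other array. It was higher than in Cpr-lox (0.46 ± 0.12, adjusted p = 0.0309) and than in Cpr-low (0.46 ± 0.12, adjusted p = 0.0303). The first call was lost without liver-Cpr-null pool 1 or any 1 Cpr-lox pool (adjusted p up to 0.135), and the second without liver-Cpr-null pool 1 or Cpr-low pool 1 or 2 (up to 0.124).

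Ssr4 had 4470.3, 3577 and 3899 in liver-Cpr-null pools, 2661, 3086 and 3123 in Cpr-low pools and 3053, 3366 and 3262 in Cpr-lox pools. Liver-Cpr-null again lay above the rest, and Cpr-low pool 1 was the lowest array. Against Cpr-low the rise was 0.43 ± 0.094, adjusted p = 0.0146, lost without liver-Cpr-null pool 1 or Cpr-low pool 1 (adjusted p up to 0.0705), and against Cpr-lox the value was 0.30 ± 0.094, adjusted p = 0.0828. Its dimmer probe sets gave -0.16 and -0.14 against Cpr-low, of opposite sign. Neither Ssr1 (0.19, adjusted p = 0.186) nor Ssr2 (0.25, adjusted p = 0.213) passed against Cpr-lox. Sec62 and Sec63, which serve import after translation, did not pass either, with -0.17, adjusted p = 0.262 and 0.022, adjusted p = 0.949.

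Signal peptidase, the membrane enzyme that removes signal sequences, held the member with the largest fold change of the set in liver-Cpr-null against Cpr-lox, Sec11c. Of its 4 tested genes 2 were higher in liver-Cpr-null than in Cpr-lox and 3 higher than in Cpr-low, with 0 lower in limma's test in either (unadjusted, 3 higher and 0 lower in each), and none was called between Cpr-low and Cpr-lox (unadjusted, 1 each way). Sec11c, one of the alternative catalytic subunits, had 411, 368 and 469 in liver-Cpr-null pools, 306, 267 and 298 in Cpr-low pools and 212, 207 and 292 in Cpr-lox pools. All 3 liver-Cpr-null pools exceeded the others, while Cpr-lox pool 3 lay among the Cpr-low values. The rise over Cpr-lox was 0.78 ± 0.12, adjusted p = 0.00167, kept without any 1 pool. Over Cpr-low it was 0.49 ± 0.12, adjusted p = 0.0271, lost without liver-Cpr-null pool 1 or 3 or Cpr-low pool 1 or 2 (adjusted p up to 0.104).

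Spcs1, an accessory subunit, had 1896, 1894 and 1785 in liver-Cpr-null pools, 1356, 1424 and 1448 in Cpr-low pools and 1632, 1591 and 1606 in Cpr-lox pools. The 3 models did not overlap, liver-Cpr-null being highest and Cpr-low lowest. Against Cpr-low the rise was 0.39 ± 0.07, adjusted p = 0.00382, kept without any 1 pool. Against Cpr-lox it was 0.20 ± 0.07, adjusted p = 0.108, and Cpr-low against Cpr-lox was -0.19 ± 0.07, adjusted p = 0.157, so neither passed. A second, dimmer probe set of Spcs1 gave 0.11 against Cpr-low.

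Spcs2 had 1868, 1466 and 1661 in liver-Cpr-null pools, 1154, 1311 and 1188 in Cpr-low pools and 1125, 1372 and 1336 in Cpr-lox pools. Liver-Cpr-null exceeded the others throughout. It rose by 0.38 ± 0.10, adjusted p = 0.0475 over Cpr-lox and 0.44 ± 0.10, adjusted p = 0.0216 over Cpr-low, and a second probe set gave the larger values of 0.81 and 0.59. The call over Cpr-lox was lost without any of 7 pools (all but Cpr-low pool 1 and liver-Cpr-null pool 2; adjusted p up to 0.214), and that over Cpr-low without liver-Cpr-null pool 1 or 3 or Cpr-low pool 1 (up to 0.0988). Spcs3 spread widely within liver-Cpr-null and Cpr-lox, less so within Cpr-low, and was not called, with 0.26 ± 0.17, adjusted p = 0.483 over Cpr-lox.

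Of 3 oligosaccharyltransferase subunits, 1 was higher in liver-Cpr-null than in Cpr-lox and 0 lower (unadjusted, 2 and 0), and none was called in the other comparisons. At an unadjusted p under 0.05, liver-Cpr-null against Cpr-low gave 2 higher and 0 lower, and Cpr-low against Cpr-lox 0 each way. Ddost, which holds the catalytic complex together, had 1427, 1434 and 1268 in liver-Cpr-null pools, 1077, 1165 and 1086 in Cpr-low pools and 944, 894 and 1102 in Cpr-lox pools. The liver-Cpr-null pools lay above the rest, and Cpr-lox pool 3 reached into the Cpr-low range. The rise over Cpr-lox was 0.49 ± 0.091, adjusted p = 0.00562, kept without any 1 pool, and over Cpr-low the value was 0.31 ± 0.091, adjusted p = 0.0577. Rpn2 stood at 0.27, adjusted p = 0.0721, and Rpn1 at 0.044, adjusted p = 0.877, both over Cpr-lox.

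Among chaperones, in the fit without a date block and on the probe sets used, Hspa5 and Dnajc3 were called lower in Cpr-low than in both other models. P4hb was called higher in liver-Cpr-null than in both. Of 11 tested, 1 was higher in liver-Cpr-null than in Cpr-lox and 0 lower (unadjusted, 3 and 0), 0 were higher in Cpr-low than in Cpr-lox and 2 lower (unadjusted, 0 and 4), and 3 were higher in liver-Cpr-null than in Cpr-low and 0 lower (unadjusted, 5 and 0). Hspa5 (BiP), the main Hsp70 of the ER lumen and a standard marker of the unfolded protein response, had 5088, 4480.5 and 4000.4 in liver-Cpr-null pools, 2292, 2892 and 2834 in Cpr-low pools and 3241, 4233 and 4399.7 in Cpr-lox pools. Cpr-low lay below both other models without overlap, and liver-Cpr-null overlapped Cpr-lox. It was lower in Cpr-low than in Cpr-lox (-0.56 ± 0.13, adjusted p = 0.021) and higher in liver-Cpr-null than in Cpr-low (0.76 ± 0.13, adjusted p = 0.00304), while liver-Cpr-null against Cpr-lox gave 0.20 ± 0.13, adjusted p = 0.489, with a 95% interval of -0.08 to 0.48. The difference from Cpr-low held without any 1 pool. The fall against Cpr-lox was lost without Cpr-low pool 1 or Cpr-lox pool 2 or 3 (adjusted p up to 0.1). A second Hspa5 probe set gave -0.50 and 0.70 for the same comparisons.

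Dnajc3 (P58IPK), an Hsp40 partner of Hspa5, had 867, 761 and 705 in liver-Cpr-null pools, 506, 632 and 583 in Cpr-low pools and 871, 769.6 and 826 in Cpr-lox pools. Its Cpr-low pools were all below the others. It was lower in Cpr-low than in Cpr-lox (-0.51 ± 0.10, adjusted p = 0.00841), a call kept without any 1 pool. Liver-Cpr-null was higher than Cpr-low (0.43 ± 0.10, adjusted p = 0.0193), a call lost without liver-Cpr-null pool 1 or 2 or Cpr-low pool 1 (adjusted p up to 0.095). Other kept probe sets of the gene disagreed: the next, nearly as bright, gave -0.072 for Cpr-low against Cpr-lox and the third -0.042. For liver-Cpr-null against Cpr-low they gave -0.010 and -0.057. Both Dnajc3 calls thus rest on 1 kept probe set.

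P4hb, a protein disulfide isomerase that is also a subunit of the microsomal triglyceride transfer protein and of collagen prolyl hydroxylase, had 8671, 7477 and 7466 in liver-Cpr-null pools, 5910.3, 6597 and 6547 in Cpr-low pools and 5539, 6172 and 6102 in Cpr-lox pools. Liver-Cpr-null lay above both other models without overlap, and pool 1 was highest. Over Cpr-lox the rise was 0.40 ± 0.08, adjusted p = 0.00768, kept without any 1 pool. Over Cpr-low it was 0.31 ± 0.08, adjusted p = 0.0326, lost without liver-Cpr-null pool 1 or 2 or Cpr-low pool 1 or 2 (adjusted p up to 0.142). The related isomerases Pdia3, Pdia4 and Pdia6 were not called in any comparison, with 0.11, 0.082 and 0.25 over Cpr-lox.

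Hsp90b1 (Grp94), the Hsp90 of the ER, was not called, at -0.33 ± 0.15, adjusted p = 0.273 for Cpr-low against Cpr-lox and 0.47 ± 0.15, adjusted p = 0.0793 for liver-Cpr-null against Cpr-low. Dnajb9, an Hsp40 induced through Xbp1, had the largest uncalled value, 0.64 ± 0.20, adjusted p = 0.074 over Cpr-lox. Its signals were 1744, 1176 and 1439 in liver-Cpr-null pools, 799, 1155 and 1212 in Cpr-low pools and 739, 829 and 1237 in Cpr-lox pools, so Cpr-lox pool 3 lay among the liver-Cpr-null values. The lectin chaperones Calr and Canx and the cofactor Dnajb11 were not called anywhere, with values over Cpr-lox of -0.16, 0.26 and -0.087 in liver-Cpr-null and -0.16, 0.071 and -0.24 in Cpr-low.

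Chaperone promoters are shown because several carry the letters of the ER stress element, the known binding site of Atf6 with NF-Y. The element was searched as CCAAT, any 9 bases, then CCACG, on both strands of RefSeq promoters (GRCm38.p6, 250 bases before to 50 after the start site), with a second form, ATTGG, any 1 base, then CCACG. Promoters were found for 42 of the 49 genes, 45 in all. The first form was in 6 of the 45 (13.3%) and in 0.119% of all 32851 promoters, and the second in 2 (4.44%) and in 0.0365%. The genes were listed for their ER function, so these shares describe the list. Windows below reach 10 bases to either side for the first form and 9 for the second, read along the element's own strand, with the element's fixed letters in capitals.
Hspa5, chr2:34772015-34772053, plus strand: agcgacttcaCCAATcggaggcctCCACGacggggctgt
Hsp90b1, chr10:86705628-86705666, minus strand: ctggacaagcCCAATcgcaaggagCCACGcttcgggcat
Hsp90b1, chr10:86705523-86705561, plus strand: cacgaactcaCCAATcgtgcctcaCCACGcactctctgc
Calr, chr8:84847065-84847103, plus strand: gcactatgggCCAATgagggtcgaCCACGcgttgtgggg
Canx, chr11:50325790-50325828, minus strand: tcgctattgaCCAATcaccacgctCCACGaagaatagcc
Pdia6, chr12:17266481-17266519, plus strand: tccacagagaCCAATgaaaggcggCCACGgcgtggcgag
Dnajc3, chr14:118937817-118937855, plus strand: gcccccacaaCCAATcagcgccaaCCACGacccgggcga
Dnajb11, chr16:22857843-22857871, plus strand: ccggcggcgATTGGcCCACGcctggctgc
Herpud1, chr8:94386368-94386396, plus strand: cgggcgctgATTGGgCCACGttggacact

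The 250 bases before the Hspa5 start site are given whole, as its signal separated Cpr-low from both other models. The searched element is in capitals.
Hspa5, chr2:34771840-34772089, plus strand: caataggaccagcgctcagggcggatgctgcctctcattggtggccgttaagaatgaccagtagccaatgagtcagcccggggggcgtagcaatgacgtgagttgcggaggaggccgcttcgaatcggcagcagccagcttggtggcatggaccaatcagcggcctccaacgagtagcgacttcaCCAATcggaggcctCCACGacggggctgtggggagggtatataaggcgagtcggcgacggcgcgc

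The 6 genes with the first form did not share 1 pattern. In Cpr-low against Cpr-lox, Hspa5 (-0.56) and Dnajc3 (-0.51) were called lower, while Hsp90b1 (-0.33), Calr (-0.16), Canx (0.071) and Pdia6 (0.13) were not called. Of the other 2, Dnajb11 stood at -0.24, adjusted p = 0.195, and Herpud1 at 0.36, adjusted p = 0.0734, above 0. A match of letters says nothing of whether a factor was bound in these livers.

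Of the 4 tested genes of the unfolded protein response and ER-associated degradation, 1 was lower in Cpr-low than in Cpr-lox and 0 higher (unadjusted, 1 and 2), and none was called in either liver-Cpr-null comparison. Unadjusted, liver-Cpr-null gave 1 higher and 0 lower against Cpr-lox and 1 each way against Cpr-low. Xbp1, the transcription factor made active by Ire1-dependent splicing, had 2350.2, 2327 and 2201 in liver-Cpr-null pools, 1692, 2019 and 2040.1 in Cpr-low pools and 2278, 2472 and 2719 in Cpr-lox pools. Cpr-low was below both other models, and pool 1 was its lowest. The fall against Cpr-lox was -0.38 ± 0.092, adjusted p = 0.0301, lost without Cpr-low pool 1 or 2 or Cpr-lox pool 2 or 3 (adjusted p up to 0.112). Further Xbp1 probe sets gave -0.33, -0.27 and -0.058. Spliced and unspliced Xbp1 cannot be told apart by these signals.

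Herpud1, an ER stress-induced membrane protein that recruits ubiquitin ligases, ran the other way. It had 3276, 2566 and 2568 in liver-Cpr-null pools, 2933, 3368 and 3660.3 in Cpr-low pools and 2539.8, 2519.5 and 2686 in Cpr-lox pools. Cpr-low lay above Cpr-lox without overlap, at 0.36 ± 0.11, adjusted p = 0.0734, and a second probe set gave 0.54. Edem1, which marks misfolded glycoproteins for disposal, stood at 0.25, adjusted p = 0.201, and Sel1l, the partner of the ligase Syvn1, at -0.14, adjusted p = 0.59.

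Of 6 COPII and SNARE genes, 2 were higher in liver-Cpr-null than in Cpr-lox and 0 lower (unadjusted, 2 and 1), 2 were higher than in Cpr-low and 0 lower (unadjusted, 3 and 0), and Cpr-low against Cpr-lox had 0 higher and 1 lower (unadjusted, 0 and 2). Sar1b, a GTPase that starts COPII budding and whose loss in people blocks the export of chylomicrons, had 4490, 4306 and 4760.2 in liver-Cpr-null pools, 3629, 3793 and 3696 in Cpr-low pools and 3071, 3532 and 3526 in Cpr-lox pools. The models did not overlap, with liver-Cpr-null highest and Cpr-lox lowest. The rise over Cpr-lox was 0.42 ± 0.076, adjusted p = 0.0043, kept without any 1 pool, and over Cpr-low 0.28 ± 0.076, adjusted p = 0.0374, lost without any 1 of the 6 pools compared (adjusted p up to 0.132). Its paralog Sar1a was not called, with 0.10, adjusted p = 0.552 over Cpr-lox.

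Sec22b, the SNARE that fuses ER-derived vesicles, had 1016, 1013 and 931 in liver-Cpr-null pools, 696, 716 and 700.3 in Cpr-low pools and 655, 793 and 780.5 in Cpr-lox pools. Liver-Cpr-null was above both other models, which overlapped. The rise was 0.48 ± 0.085, adjusted p = 0.00417 over Cpr-low, kept without any 1 pool, and 0.41 ± 0.085, adjusted p = 0.011 over Cpr-lox, lost without liver-Cpr-null pool 1 (adjusted p = 0.0565). A dimmer Sec22b probe set gave 0.072 over Cpr-lox and 0.02 over Cpr-low.

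Sec23a, an inner coat subunit that stimulates Sar1, had 719, 636 and 626 in liver-Cpr-null pools, 524, 628 and 759 in Cpr-low pools and 888, 834 and 892 in Cpr-lox pools. Both altered models were below Cpr-lox without overlap, and they overlapped each other. The log2 fold change was -0.46 ± 0.11, adjusted p = 0.0324 in Cpr-low and -0.39 ± 0.11, adjusted p = 0.0555 in liver-Cpr-null, the first called and the second not. The Cpr-low call was lost without Cpr-low pool 1 or 2 or any 1 Cpr-lox pool (adjusted p up to 0.1). The paralog Sec23b was not called, with 0.21 in liver-Cpr-null and 0.035 in Cpr-low over Cpr-lox. The outer coat subunit Sec31a was not called either, at -0.26, adjusted p = 0.0606 in Cpr-low.

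Of 5 COPI coat genes tested, 2 were lower in Cpr-low than in Cpr-lox and 0 higher (unadjusted, 2 and 0). In liver-Cpr-null 1 was lower than in Cpr-lox and 0 higher (unadjusted, 1 and 2), and none was called against Cpr-low (unadjusted, 3 higher and 0 lower). Copa, the alpha subunit of the coatomer, had 1330.5, 1128 and 1343 in liver-Cpr-null pools, 1052, 1210.2 and 1200.1 in Cpr-low pools and 1584, 1556 and 1666 in Cpr-lox pools. Both altered models lay below Cpr-lox without overlap. The log2 fold change was -0.47 ± 0.089, adjusted p = 0.00716 in Cpr-low, kept without any 1 pool. In liver-Cpr-null it was -0.34 ± 0.089, adjusted p = 0.0379, a call lost without any of 7 pools (all but Cpr-low pools 1 and 3; adjusted p up to 0.15), and also on signals as deposited or scaled to a common median.

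Copb1, a beta subunit, had 1195, 1287 and 1203 in liver-Cpr-null pools, 992, 1030.3 and 1026 in Cpr-low pools and 1208, 1476 and 1484 in Cpr-lox pools. The Cpr-low pools were close together and below every other array. The fall against Cpr-lox was -0.44 ± 0.088, adjusted p = 0.00982, lost without Cpr-lox pool 2 (adjusted p = 0.0578), and liver-Cpr-null against Cpr-lox gave -0.17 ± 0.088, adjusted p = 0.347. Copb2, Cope and Arcn1 were not called in any comparison. Over Cpr-lox in liver-Cpr-null they stood at -0.12, 0.24 and 0.32, the last being 0.41 ± 0.12, adjusted p = 0.0564 over Cpr-low. A second, dimmer Arcn1 probe set gave -0.014 over Cpr-lox and 0.00025 over Cpr-low in liver-Cpr-null. Fold changes of the subunits of this coat thus had both signs.

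A further element bound by Xbp1 and Atf6 in known stress genes, TGACGTGG, was searched on both strands of the same promoters. It was in 3 of the 45 member promoters (6.67%) and in 0.676% of all. Those promoters belong to 3 coat genes, of which Sec23a and Copb1 were called lower in Cpr-low, and Copb2 was not (-0.092, adjusted p = 0.524). Each window again has 10 bases to either side of the capitals, along the element's strand.
Sec23a, chr12:59011994-59012021, minus strand: tcctccccttTGACGTGGcagaggcggc
Copb1, chr7:114254691-114254718, plus strand: agtccttggcTGACGTGGaagggggcgg
Copb2, chr9:98563714-98563741, minus strand: gccaacccacTGACGTGGaacttccggg

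Of 3 tested cargo and retrieval receptors none was called in any comparison of limma's fit (unadjusted, 1 higher in liver-Cpr-null than in Cpr-lox and 0 in every other direction). Kdelr1, which returns KDEL-tailed chaperones such as Hspa5 to the ER, had 1478, 1515 and 1451 in liver-Cpr-null pools, 942, 1446 and 1436 in Cpr-low pools and 1443, 1442 and 1470.4 in Cpr-lox pools. Cpr-low pool 1 was far below the other 8 arrays, which lay close together. Cpr-low against Cpr-lox gave -0.21 ± 0.13, adjusted p = 0.431. Kdelr2, its paralog, stood at 0.16, adjusted p = 0.266 in liver-Cpr-null and the cargo receptor Tmed10 at 0.10, adjusted p = 0.561, both over Cpr-lox.

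**Figure D3:**
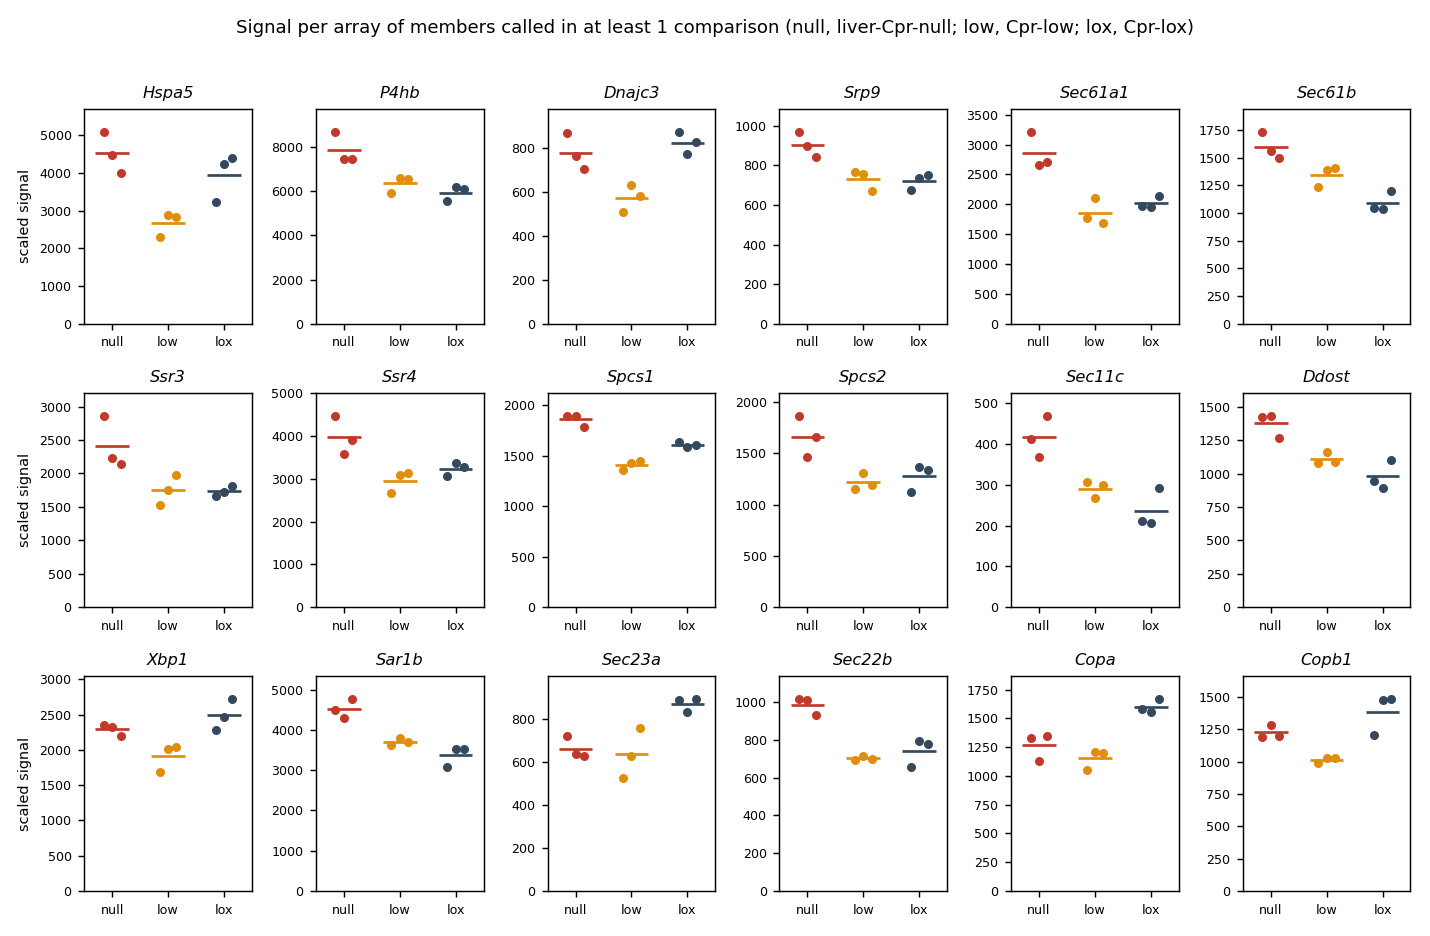
Panels show the scaled signal (linear axis from 0) of the 18 genes called in at least 1 comparison, with a point per array and a line at the mean of the 3 pools of each model. In Sec61a1, Sar1b and Sec22b the liver-Cpr-null points stand above all others, and in Hspa5, Dnajc3 and Copb1 the Cpr-low points stand below all others.

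**Figure D4:**
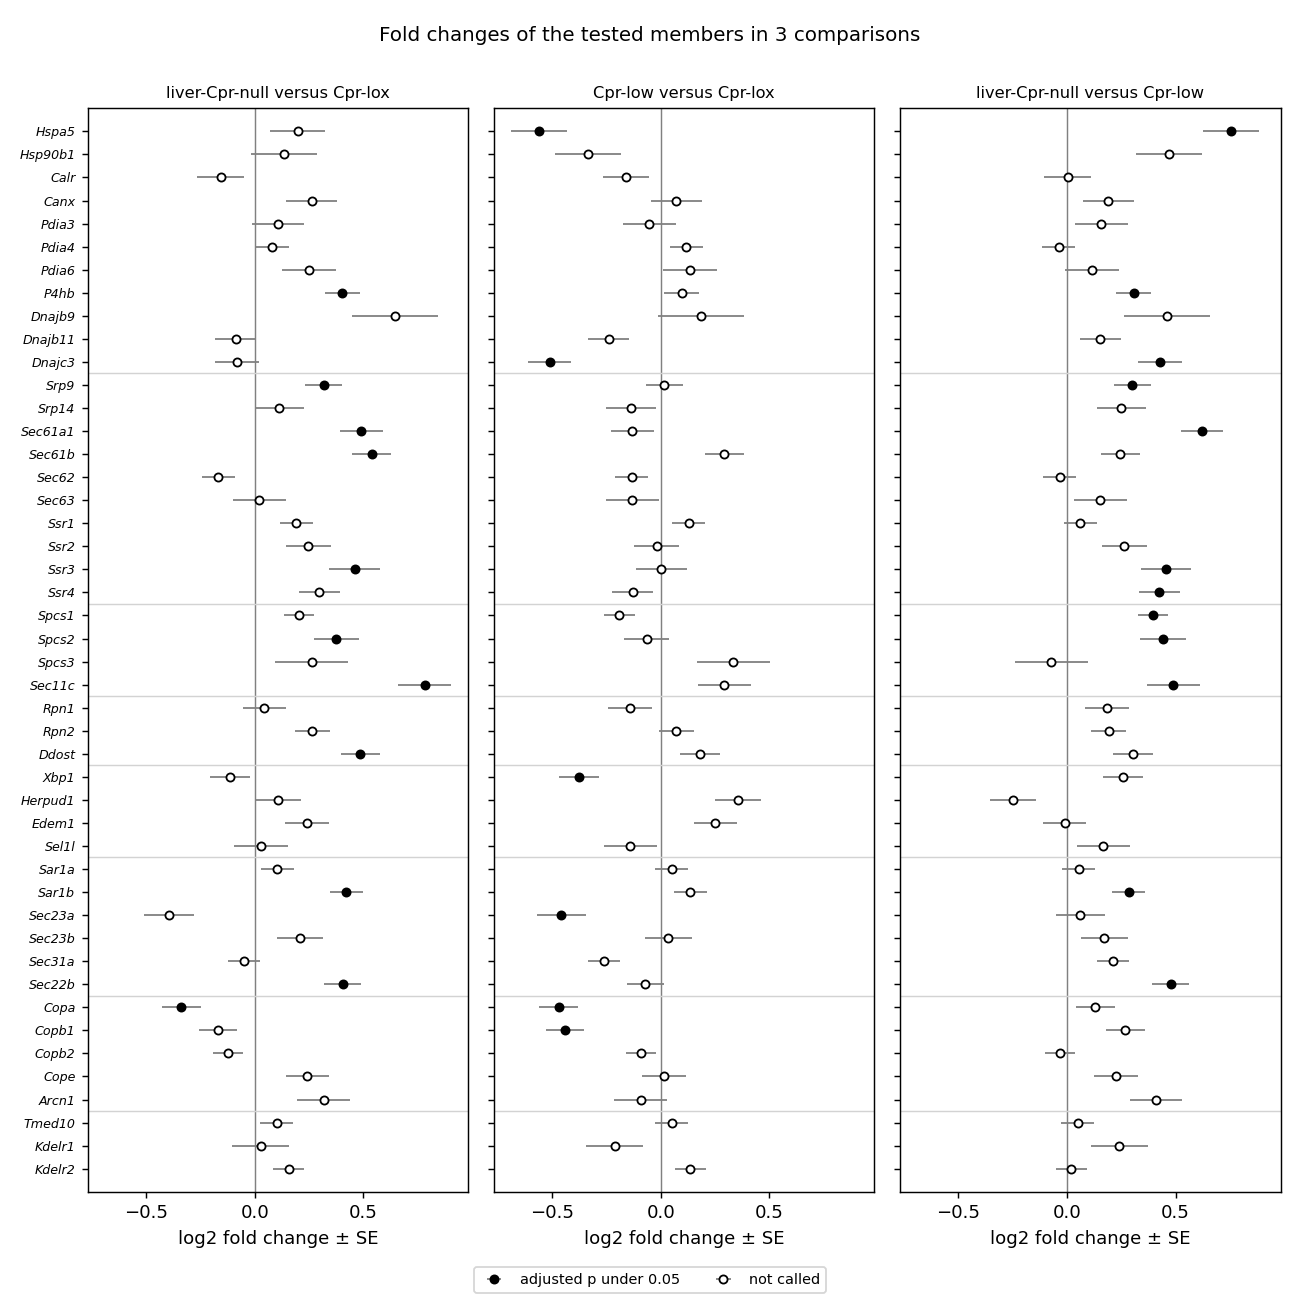
Points are log2 fold changes of the 46 genes with bars of 1 SE in the 3 comparisons, and filled points have an adjusted p under 0.05. In liver-Cpr-null against Cpr-lox the filled points lie to the right except Copa, in Cpr-low against Cpr-lox all 6 lie to the left, and in liver-Cpr-null against Cpr-low all 12 lie to the right.

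Hybridization date moved with the models, so the fit was repeated with the date as a block. Liver-Cpr-null was then compared with Cpr-lox only through Cpr-low, whose pool 1 shares a date with Cpr-lox and whose pools 2 and 3 share the other. The estimate is the sum of 2 steps, Cpr-low pool 1 against Cpr-lox and liver-Cpr-null against Cpr-low pools 2 and 3. Under the block 0 members were higher in liver-Cpr-null than in Cpr-lox and 2 lower (unadjusted, 8 and 7, against 10.8% and 8.51%), against 0.586% and 1.09% of all genes. All 10 rises over Cpr-lox kept their sign but lost their call, for example Sec11c (0.89, adjusted p = 0.0763), Sar1b (0.38, adjusted p = 0.164), Sec61b (0.36, adjusted p = 0.216) and Ssr3 (0.17, adjusted p = 0.648). The 2 lower were Sec23a (-0.78, adjusted p = 0.0324) and Kdelr1 (-0.58, adjusted p = 0.0301). Kdelr1 had no such difference without the block (0.028, adjusted p = 0.939), and its blocked value rests on the low Cpr-low pool 1. The Sec23a value takes in that pool too. Relative to the Cpr-lox mean, Sec23a was at -0.71 in Cpr-low pool 1, against -0.46 and -0.19 in pools 2 and 3. Copa was no longer called (-0.53, adjusted p = 0.0869).

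For Cpr-low against Cpr-lox the blocked fold change of every member is that of Cpr-low pool 1 alone against Cpr-lox, since no other Cpr-low array has that date. It is therefore a value of 1 array, the one that stood apart from its model, and no check of the model difference. It gave 0 higher and 8 lower (unadjusted, 0 and 15, against 22.9% and 10.5%), against 7.03% and 5.25% of all genes, with medians of -0.17 for members and 0.11 for all genes. The 8 were the 6 of the fit without a block, Sec63 (-0.46, adjusted p = 0.0246) and Kdelr1 (-0.62, adjusted p = 0.00369). Sec63 had 599, 576 and 591 in liver-Cpr-null pools, 416, 541 and 649.5 in Cpr-low pools and 581, 553 and 604 in Cpr-lox pools. Its other kept probe sets gave 0.00052, 0.22 and 0.035 for Cpr-low against Cpr-lox without the block, where the one used gave -0.13. Relative to the Cpr-lox mean, Sec63 was at -0.46, -0.10 and 0.16 in Cpr-low pools 1, 2 and 3, and Kdelr1 at -0.62, -0.0054 and -0.016. For both genes pool 1 thus stood below the other pools. Hspa5 was at -0.77, -0.44 and -0.47 and Copb1 at -0.47, -0.42 and -0.43, below the Cpr-lox mean in all 3 pools.

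For liver-Cpr-null against Cpr-low the block left 4 higher and 0 lower (unadjusted, 18 and 1, against 9.12% and 9.98%), against 3.27% and 2.52% of all genes: Hspa5 (0.65, adjusted p = 0.017), Sec61a1 (0.59, adjusted p = 0.0113), Spcs1 (0.37, adjusted p = 0.0137) and Sec22b (0.47, adjusted p = 0.0156). These blocked fold changes compare the 3 liver-Cpr-null pools with Cpr-low pools 2 and 3, which shared a date, and leave out the low Cpr-low pool 1. A fit of those 5 arrays alone has the same fold changes and its own estimate of the spread, and there 5 were higher and 0 lower (unadjusted, 20 and 1, against 9.38% and 11.8%), against 2.79% and 2.48% of all genes. Those were the same 4 and Sec11c (0.53, adjusted p = 0.0306).

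**Figure D5:**
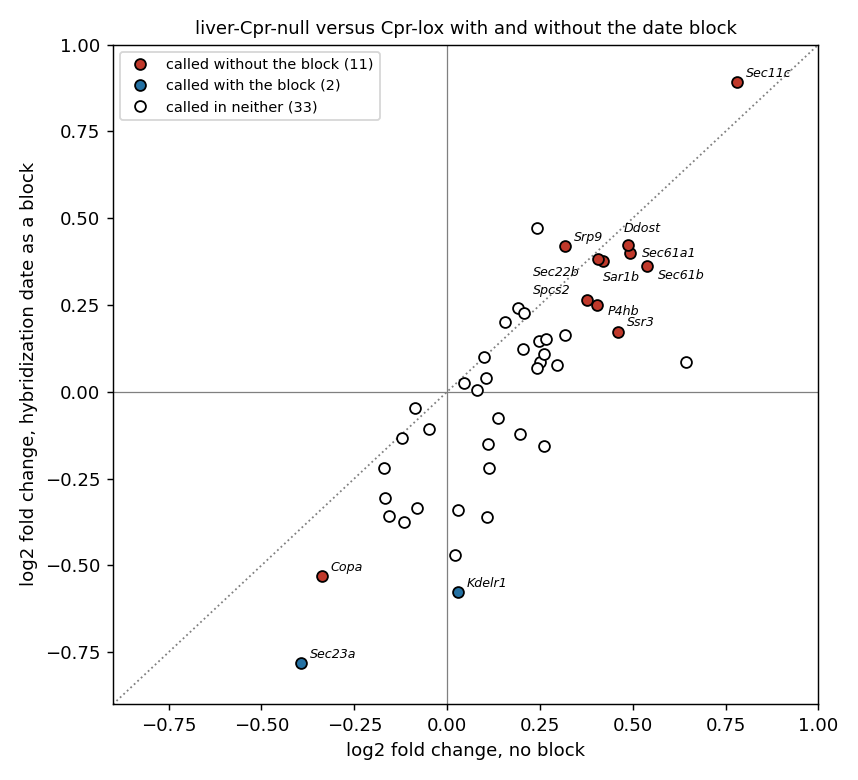
Each point is 1 of the 46 genes, with the log2 fold change of liver-Cpr-null against Cpr-lox from the fit without a block on the horizontal axis and with hybridization date as a block on the vertical. The 10 genes called higher without the block lie in the upper right, 8 of them between the dotted diagonal and 0 on the vertical axis, and Sec23a and Kdelr1 lie lowest.

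Wider lists of the same pathways, 103 genes tested, held 10 calls in liver-Cpr-null against Cpr-lox (8 higher), 5 in Cpr-low against Cpr-lox (1 higher) and 15 in liver-Cpr-null against Cpr-low (all higher). Over all genes tested the shares called higher and lower were 3.66% and 3.44%, 2.31% and 3.48%, and 4.66% and 3.76%, in the same order. The 4 lower in Cpr-low were close to that background. Of 16 other translocation and glycosylation genes tested, 4 were higher in liver-Cpr-null than in Cpr-lox and 0 lower (unadjusted, 9 and 1), 2 were higher than in Cpr-low and 0 lower (unadjusted, 9 and 0), and none was called between Cpr-low and Cpr-lox in limma's test (unadjusted, 1 and 4). The 4 were Dad1 (0.42 ± 0.079, adjusted p = 0.00608), Stt3a (0.62 ± 0.12, adjusted p = 0.00616), Stt3b (0.32 ± 0.078, adjusted p = 0.0232) and Tram1 (0.43 ± 0.12, adjusted p = 0.0471). Dad1, Stt3a and Stt3b belong to the same oligosaccharyltransferase as Ddost, with Stt3a and Stt3b its alternative catalytic subunits, and Tram1 lies beside the Sec61 channel. The 2 over Cpr-low were Stt3b (0.55, adjusted p = 0.00105) and Stt3a (0.45, adjusted p = 0.0336).

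Of 26 regulators and targets of the unfolded protein response, 0 were higher in liver-Cpr-null than in Cpr-lox and 2 lower (unadjusted, 3 and 2): Ppp1r15b (-0.37, adjusted p = 0.00753), a phosphatase subunit for eIF2alpha, and Creb3l3 (-0.30, adjusted p = 0.0168), a liver ER-bound transcription factor. In Cpr-low against Cpr-lox 0 were higher and 1 lower (unadjusted, 1 and 5), again Creb3l3 (-0.34, adjusted p = 0.0104). Against Cpr-low, liver-Cpr-null had 3 higher and 0 lower (unadjusted, 6 and 2). They were Manf (0.80, adjusted p = 0.00453), which binds Hspa5, Pdia5 (0.53, adjusted p = 0.00598), an isomerase, and Atf6 (0.29, adjusted p = 0.0398), a stress sensor. Ddit3 (Chop), Atf4 and Trib3, genes of the Perk branch, were not called, with 0.012, -0.11 and 0.10 in liver-Cpr-null and 0.041, -0.063 and 0.094 in Cpr-low over Cpr-lox. These are RNA signals, and the activity of the branch was not tested.

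Among 15 genes of ER-associated degradation, 2 were higher in liver-Cpr-null than in Cpr-lox and 0 lower (unadjusted, 4 and 1): Edem2 (0.49, adjusted p = 0.00477) and Derl3 (0.39, adjusted p = 0.0311). In Cpr-low against Cpr-lox 0 were higher and 1 lower (unadjusted, 0 and 3), Nploc4 (-0.33, adjusted p = 0.0205), and against Cpr-low 2 were higher and 0 lower (unadjusted, 7 and 0), Edem2 (0.33, adjusted p = 0.0393) and the ligase Syvn1 (0.40, adjusted p = 0.0421). Among 46 other coat and transport genes, liver-Cpr-null had 2 higher than Cpr-lox and 0 lower (unadjusted, 11 and 2), Tmed3 (0.66, adjusted p = 0.00255) and Trappc4 (0.33, adjusted p = 0.021), and 8 higher than Cpr-low and 0 lower (unadjusted, 15 and 2). The 4 of those with the smallest adjusted p were Tmed5 (0.79, adjusted p = 0.000949), Tmed3 (0.77, adjusted p = 0.00111), Bcap29 (0.50, adjusted p = 0.00266) and Trappc4 (0.34, adjusted p = 0.0177). Cpr-low against Cpr-lox had 1 higher, Ergic1 (0.34, adjusted p = 0.017), and 2 lower, Tmed5 (-0.75, adjusted p = 0.0014) and Tmed4 (-0.41, adjusted p = 0.00525), the Tmed genes being p24 cargo receptors. 

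With the date as a block, 0 of the 103 genes were called between liver-Cpr-null and Cpr-lox in limma's test, against 0.586% higher and 1.09% lower of all genes. The unadjusted counts there were 13 higher and 6 lower over the lists, against 10.8% and 8.51%. Between liver-Cpr-null and Cpr-low 9 were higher and 0 lower, against 3.27% and 2.52% of all genes. Among those named above, Stt3b, Manf, Pdia5, Atf6, Tmed5, Tmed3 and Bcap29 were still called, and Stt3a (0.36, adjusted p = 0.123), Edem2 (0.35, adjusted p = 0.0638), Syvn1 (0.41, adjusted p = 0.0901) and Trappc4 (0.31, adjusted p = 0.0507) were not. The blocked values of Cpr-low against Cpr-lox again rest on pool 1 alone. There Nploc4 stood at -0.34, Creb3l3 at -0.38, Tmed5 at -0.86, Tmed4 at -0.48 and Ergic1 at 0.47. Each had the sign of the fit without the block.

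Kupffer cell markers and the 3' to 5' ratio of actin moved with liver-Cpr-null, beside the ER genes. Of 11 Kupffer cell markers tested 9 were higher than in Cpr-lox and 0 lower, with summed signals of 9963 to 12798 in liver-Cpr-null, 6841 to 7554 in Cpr-low and 7296 to 7837 in Cpr-lox pools. Within the list, the defining gene Clec4f was 0.54 ± 0.10, adjusted p = 0.00668 over Cpr-lox. Against Cpr-low 8 of the 11 were higher and 0 lower. With the date as a block 1 of 11, Cd68, was called over Cpr-lox and 8 over Cpr-low. Of 8 hepatocyte markers 0 were higher and 2 lower than in Cpr-lox, Fgb and Apoa1, and 0 were higher and 4 lower than in Cpr-low, Ttr, Alb, Ahsg and Fgb. With the block none of the 8 was called in either comparison (unadjusted, 0 higher and 1 lower against Cpr-lox, and 0 and 4 against Cpr-low, in limma's test). Of 2 B and plasma cell markers tested, 1 was higher, the syndecan Sdc1, which hepatocytes also express, over both Cpr-lox and Cpr-low. The summed signals of the 7 with a probe set were 3847 to 4113 in liver-Cpr-null, 3072 to 3306 in Cpr-low and 3057 to 3327 in Cpr-lox pools, and those of the 6 other than Sdc1 were 1394 to 1527 in liver-Cpr-null, 1451 to 1714 in Cpr-low and 1351 to 1573 in Cpr-lox pools, which overlap. The ratio of 3' to 5' signal of actin was 1.62 to 1.99 in liver-Cpr-null, 1.17 to 1.26 in Cpr-low and 1.23 to 1.43 in Cpr-lox arrays, and that of Gapdh was 2.34 to 2.48, 2.36 to 2.72 and 2.60 to 2.79 in the same order. Summed signals of stellate markers were 3367 to 3936, 3746 to 4282 and 3392 to 3764, of endothelial markers 3217 to 4035, 3527 to 3926 and 3064 to 3382, and of cholangiocyte markers 561 to 608, 574 to 701 and 578 to 639. Of 7 stellate markers tested 1 was called without the block, Col3a1, higher in liver-Cpr-null than in Cpr-lox (0.77, adjusted p = 0.00262). With the block Col3a1 was not called (0.81, adjusted p = 0.106). Of 6 endothelial markers 1 was called without the block, Clec4g, higher in Cpr-low than in Cpr-lox (0.56, adjusted p = 0.0295). With the block, where that comparison rests on Cpr-low pool 1 alone, Clec4g stood at 0.40 and Stab2 at -0.41. None of 2 cholangiocyte markers was called. The part of these markers and ratios in the ER gene results was not tested.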

How the data were processed

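Liver RNA pools of 3 models, 3 pools each, were labelled and measured on Affymetrix MOE430A arrays, per the labels and the file headers. The authors deposited 1 linear signal intensity per probe set and array, for 22690 probe sets. The steps from probes to these signals (summary, background, array scaling) are not given here by any source, so low signals may hold background of unknown size. Models came from the sample titles. The members, the lists and the markers were chosen with earlier results of these data known.

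Signals were scaled to a common 2% trimmed mean and analysed as log2(signal + 16). Only probe sets that list 1 gene symbol in GEO's platform annotation and rank in the upper 60% of mean log2 signal were used, 1 per gene (the brightest), which gave 8879 genes. All 46 member symbols matched RefSeq names. All 9 arrays entered 1 fit with limma 3.58.1 in R 4.3.3 (lmFit, contrasts.fit and trended eBayes, tests two-sided), with p-values adjusted by Benjamini-Hochberg over all genes tested and a threshold of 0.05, and the code was tested on simulated data. Members called in any comparison, or whose call depends on the hybridization date, are given array by array, and the others by value or range. From each wider list up to 4 called genes with the smallest adjusted p are named, and in addition Ddit3, Atf4 and Trib3, chosen as textbook genes of the Perk branch. Hybridization and scan dates were read from each array's run record, per the file headers. Alternatives were other scalings, filters, pseudocounts and probe set choices, pool number and date as blocks, and each pool left out; fits within a date were added after the data had been seen. Promoter letters were searched with Python 3.11.15 in RefSeq sequences of GRCm38.p6, and figures were drawn with matplotlib 3.10.9. Promoter coordinates are of that build. Protein sequences were not used here.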

Additional observations from a re-analysis of the deposited data

How the results depend on the processing

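Of the 29 member calls, 12 held without any 1 pool, and all 29 held with pseudocounts of 1 or 64, with no intensity trend and with the upper 40% of probe sets. Leaving out each pool gave 6 to 11 members higher and 0 to 2 lower in liver-Cpr-null against Cpr-lox, with medians of 0.12 to 0.23. In Cpr-low against Cpr-lox it gave 0 to 1 higher and 2 to 6 lower, with medians of -0.091 to 0.0021. In liver-Cpr-null against Cpr-low it gave 4 to 15 higher, with medians of 0.18 to 0.26. With the date block 10 of the 29 calls remained, 6 of them from Cpr-low against Cpr-lox, where the block leaves Cpr-low pool 1 as the only Cpr-low array. It left 0 members higher and 2 lower in liver-Cpr-null against Cpr-lox, with a median of 0.072, and 4 higher in liver-Cpr-null against Cpr-low. For Cpr-low against Cpr-lox the median was -0.17 with the block and within the first date, which are the same values of pool 1, and 5 members were higher in liver-Cpr-null against Cpr-low within the second. The single member lower in liver-Cpr-null against Cpr-lox became 0 on signals as deposited and with a common median, and 2 with the upper 40% or a fit of only those models. Members lower in Cpr-low were 3 with a common median, and quantile normalization called 2 higher there, Sec61b and Herpud1. Averaging all kept probe sets of a gene gave 1 higher and 3 lower in Cpr-low against Cpr-lox, and 7 higher in liver-Cpr-null against Cpr-low. The dimmest kept probe set gave 1 and 3 for the first of these and 6 for the second, with a median of 0.067 in liver-Cpr-null against Cpr-lox. It turned 4 values: Sec61a1 to -0.065 against Cpr-lox and -0.19 against Cpr-low, and, against Cpr-low, Dnajc3 to -0.057 and Ssr4 to -0.14. The causes were not tested.

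With the pool number as a replicate block all 29 calls held, and 2 members, Sec23a and Copa, were lower in liver-Cpr-null against Cpr-lox. Deviations from the model means correlated at -0.21 to 0.46 between arrays of the same number, over 0.1 in 6 of 9 pairs, and 8 of 9 arrays correlated best with one of their own number. As the labels give the number no meaning across models, and 3 pairs missed 0.1, it was not taken as a pairing.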

Other observations

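Probe sets of a member other than the one used gave some values that the brightest does not show. Kdelr2 had a second probe set at 0.38 in liver-Cpr-null against Cpr-lox, where the first gave 0.16. Sec62 had one at -0.35 in liver-Cpr-null and -0.36 in Cpr-low against Cpr-lox, where the first gave -0.17 and -0.13. A second Srp14 probe set was at 0.47 in liver-Cpr-null against Cpr-low, where the first gave 0.25. Of the 46 members 26 had several kept probe sets and 20 had 1. These values were picked after they had been seen and carry no test.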
